A study of Mus musculus with 6 samples.

Results

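The stretch described here is the transcribed body of Satb1 and the DNA just past its 3′ end, as seen from a 4C bait near the Satb1 promoter. Its members were the DpnII fragments of mouse chromosome 17 whose midpoints lay between 51850000 and 51941999 (mm9), at 20 to 112 kb from the bait at 51962000. They numbered 191 of the 229546 fragments listed for that chromosome and of the 916352 listed over the 3 bait chromosomes of the series. The limits were set by coordinates and not by read counts. Satb1 (ENSMUSG00000023927.7) lies on the minus strand from 51875512 to 51972615, so that distance from the bait runs in the direction of transcription. Its 3′ end was 86.49 kb from the bait, and the nearest annotated start was 1.58 kb from it. Of the members, 135 lay in the gene and 56 in the 25.51 kb past the 3′ end, where no other gene was annotated.

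The 4C libraries with this bait came from CD4 CD8 double positive (DP) thymocytes and from embryonic stem (ES) cells, with 1 library of each among 6 libraries in the series. DP thymocytes were sorted with anti-CD4 and anti-CD8a from the thymus of c57/Bl6 mice aged 4 weeks, and ES cells were the J1 line of strain 129S4/SvJae. Both were fixed with 2% formaldehyde for 10 min, cut with DpnII and then with Csp6I. The study treats Satb1 as active in DP and silent in ES cells, and the comparison addresses whether contacts of the promoter with its own gene differ between these states. Contact counts hold no expression values, so neither the cell labels nor the state of the gene could be checked against markers. Cell type, mouse strain, freshly sorted tissue against culture, and library cannot be told apart in this design. The labels give 0.4% SDS for both libraries while the Methods give a stronger SDS treatment for DP nuclei than for ES cells, and which applies here is not settled.

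Satb1 encodes a nuclear protein that binds AT-rich DNA and organizes chromatin in developing T cells, and it is known for its role in thymocyte maturation. In 4C the DNA that was crosslinked beside a chosen bait is ligated to it, cut again and sequenced, so that the reads of a fragment measure how often it was caught near the bait. Contact frequency usually falls with distance along the chromosome, and departures from that fall are read as loops, domain edges or contacts along a transcribed gene.

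To show what carried the signal, the fragment with the most reads in each library is given from the mm9 sequence, with the fragment of second rank in ES, which adjoins the highest in DP. For both ES fragments these are the 300 bases with the lowest coordinates. Capitals mark DpnII sites (GATC) and Csp6I sites (GTAC).
Highest fragment in DP, chr17:51940146-51940334, plus strand: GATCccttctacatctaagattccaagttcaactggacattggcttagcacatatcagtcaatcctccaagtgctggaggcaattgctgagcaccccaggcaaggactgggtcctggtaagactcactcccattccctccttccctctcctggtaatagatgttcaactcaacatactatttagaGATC
Highest fragment in ES, chr17:51926240-51926539, plus strand: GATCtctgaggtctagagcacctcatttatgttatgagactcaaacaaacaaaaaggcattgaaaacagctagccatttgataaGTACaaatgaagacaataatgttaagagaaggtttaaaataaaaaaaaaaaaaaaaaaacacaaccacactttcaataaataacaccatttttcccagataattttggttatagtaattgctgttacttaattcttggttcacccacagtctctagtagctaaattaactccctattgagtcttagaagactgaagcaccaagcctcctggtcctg
Second fragment in ES, chr17:51940331-51940630, plus strand: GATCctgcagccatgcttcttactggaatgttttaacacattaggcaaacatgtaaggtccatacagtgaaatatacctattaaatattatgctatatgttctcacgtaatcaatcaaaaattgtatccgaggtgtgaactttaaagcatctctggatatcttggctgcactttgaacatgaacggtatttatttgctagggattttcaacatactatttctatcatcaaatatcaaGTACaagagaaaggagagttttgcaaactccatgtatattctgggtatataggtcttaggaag
All 3 lie in the same intron of Satb1. The DP fragment held 6184 reads in DP and 3089 in ES, and the highest ES fragment held 4725 reads in ES and 2912 in DP. The second in ES held 4088 reads in ES and 2589 in DP, so the adjoining fragments had opposite orders. The DP fragment holds no GTAC inside its ends, and 86 of the 191 members hold one.

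The DP library held 1997083 reads and the ES library 1847598, within a range of 1847598 to 6447786 over the series. Of these, 83.01% in DP and 66.84% in ES fell within 1.5 Mb of the bait, and of those 27.23% and 17.76% fell within 20 kb of it. The stretch held 115415 reads in DP and 110862 in ES. This was 6.962% (95% exact interval 6.923 to 7.001) of the reads within 1.5 Mb in DP and 8.978% (8.927 to 9.028) in ES. As a share of all reads of the chromosome the exact intervals were 5.747 to 5.812% in DP and 5.966 to 6.035% in ES, so the order was the same and the gap was narrower. All intervals here cover counting error only, without the spread between cultures or animals and without PCR duplicates, which the counts do not separate. With 1 library per cell type no test of a difference between DP and ES could be made. Values below are mean reads per fragment after quantile normalization of both libraries over the fragments within 1.5 Mb, called normalized signal, and a ratio is DP over ES.

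Over the part of the gene in the stretch the normalized signal was 712.2 for DP against 898.2 for ES, giving a ratio of 0.7930 (counting interval 0.7862 to 0.7998). With reads scaled to the total of the chromosome in place of quantiles the ratio was 1.015, so which library was higher over the whole body depended on the scaling. The body was almost fully covered, with reads on 128 of 135 fragments in DP and 132 in ES. Past the 3′ end the signal was 97.90 for DP against 219.3 for ES, giving a ratio of 0.4464 (0.4324 to 0.4608). There, 22 fragments in DP (39.29%) and 31 in ES (55.36%) held reads. Over all fragments within 1.5 Mb, without the 20 kb around the bait, the shares were 38.54% and 49.81%. The annotation holds no gene at the same distances on the other side, where the signal was 588.5 in DP and 581.6 in ES opposite the body (1.012). Opposite the flank it was 453.4 and 315.2 (1.438). The lower DP signal past the 3′ end thus had no counterpart at like distance on the other side. That side lies upstream of Satb1, and opposite the flank DP was above ES, so it is not a neutral control. Why DP was higher there was not tested. Within each library, body over mirror was 1.210 in DP and 1.544 in ES, and flank over mirror was 0.2159 and 0.6957. The mirror of the body includes a run of fragments without reads in either library, around 44.97 to 46.71 kb. The flank means include 25 of 56 fragments with no end of unique sequence, where reads can hardly be placed.

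**Figure D1:**
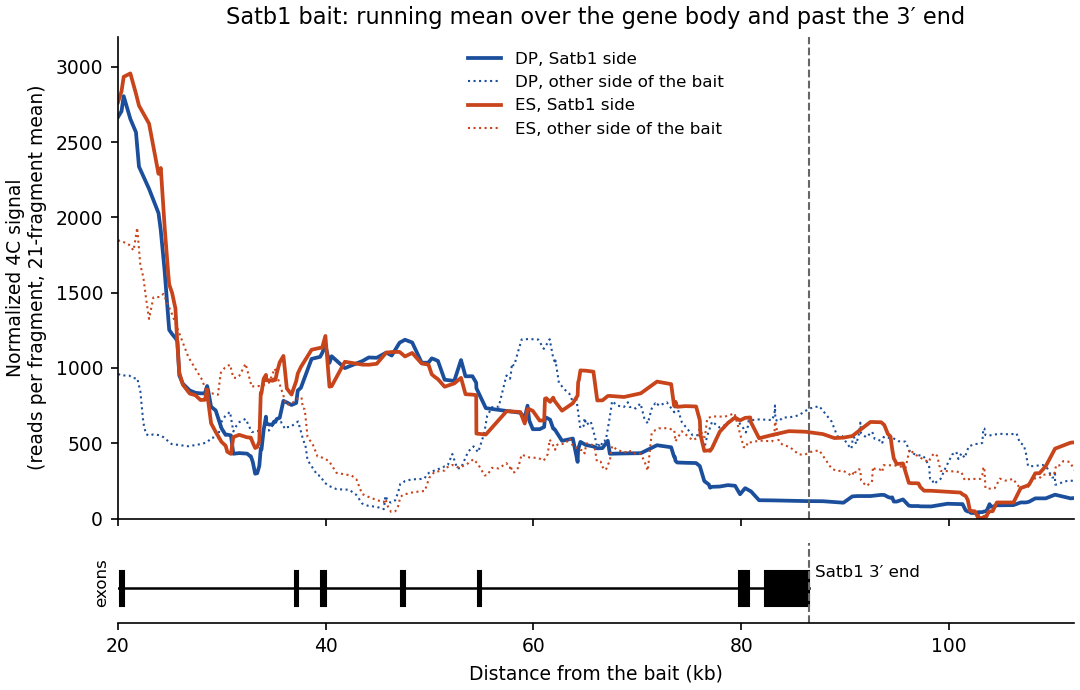
Running mean of normalized reads over 21 DpnII fragments against distance from the Satb1 bait in kb, for DP and ES, with Satb1 exons drawn below (narrow exons are widened to be visible) and a dashed line at the 3′ end. Dotted lines give the same distances on the other side of the bait. On the Satb1 side both libraries have a second high stretch between about 40 and 50 kb. There the DP line lies below the ES line from about 60 to 100 kb.

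The difference between libraries was not spread evenly along the gene. From 20 to 60 kb the normalized signal was 908.4 in DP and 992.9 in ES (ratio 0.9149, 0.9060 to 0.9239). From 60 to 100 kb it was 268.4 in DP and 625.8 in ES (0.4289, 0.4215 to 0.4364). The 60 and 100 kb limits were chosen after the values had been seen. In DP the nearer stretch held 3.385 times the signal of the farther one, and in ES 1.587 times. Of the fragments with a read in either library, 43 of 88 had the higher normalized signal in ES from 20 to 60 kb, and 49 of 67 from 60 to 100 kb. Over all such fragments within 1.5 Mb, without the 20 kb around the bait, 53.7% were higher in ES.

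In 10 kb steps from the bait, the step at 20 to 30 kb held 34137 reads in DP and 28175 in ES, with signals of 1168.7 and 1374.8. At 30 to 40 kb the signals were 564.7 and 754.0, from 20808 and 19613 reads. The ratios were 0.850 and 0.749, but they did not keep their side of 1. The former was 1.121 with reads scaled to the chromosome total and 1.012 over odd fragments, and the latter was 1.007 with counts capped. At 30 to 40 kb the median fragment was higher in DP, at 355.2 against 166.2 in ES. At 40 to 50 kb the signal was higher again in both libraries, 1313.4 in DP and 1264.1 in ES (1.039). This step stood 9.288 times over its mirror in DP and 9.802 times in ES, and its mirror was low in both, at 141.4 and 129.0. Around 44.97 to 46.71 kb on the mirror side the running mean over 11 fragments was 0 in both libraries. Whether fragments there have a unique end is not given here, so these ratios to the mirror are values alone. At 50 to 60 kb DP held 16540 reads and ES 9788, with signals of 859.4 and 671.6 (1.280). Over even fragments alone the ratios of these 2 steps were 0.9842 and 0.8385, so DP was not above ES in every setting.

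From 60 to 100 kb the mean of each step was lower in DP. At 60 to 70 kb DP held 8544 reads and ES 14071, with signals of 387.9 and 829.2 (0.4678). The median there was higher in DP, at 242.0 against 145.8, so mean and median gave opposite orders. Without the highest fragment of each library the ratio of means was 0.4733, so the lower DP mean did not rest on 1 fragment. At 70 to 80 kb the signals were 365.6 and 615.1 (0.5945), a ratio that was 0.3917 over odd and 0.980 over even fragments. At 80 to 90 kb, the step that holds the 3′ end, DP held 1165 reads and ES 5888, and the signals were 117.8 and 689.9 (0.1708, 0.1603 to 0.1819). In that step 7 of 10 fragments in DP and all 10 in ES held reads, and 1 fragment gave 58.28% of the DP reads. At 90 to 100 kb the signals were 124.6 and 388.8 (0.3205), with reads on 10 and 18 of 19 fragments. From 80 to 100 kb, 25 of the 28 fragments with reads (89.29%) were higher in ES, against 53.7% of such fragments within 1.5 Mb. This window joins the whole steps with the lowest ratios, so the count is not independent of them.

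At 100 to 110 kb both libraries were low, with 2538 reads in DP and 1406 in ES and signals of 72.97 and 43.70 (1.670). Reads could hardly be placed there, since 24 of its 32 fragments have no end whose first 26 bases, the length of the prey read, are unique in the genome. Over the 8 others the signals were 254.8 in DP and 138.2 in ES (1.844), so the DP signal on placeable fragments was above that of the 80 to 90 kb step. The last 2 kb held 2 fragments, with 166 reads in DP and 1009 in ES.

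Of the 9 whole steps, 3 were over 2-fold lower in DP and 0 were over 2-fold higher. Over all 296 steps within 1.5 Mb, 43.9% were over 2-fold lower and 16.9% over 2-fold higher in DP. The median ratio was 0.7490 over the 9 steps and 0.6389 over all 296. The share of lower steps was thus below the background, and nothing about Satb1 is read from that count.

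**Figure D2:**
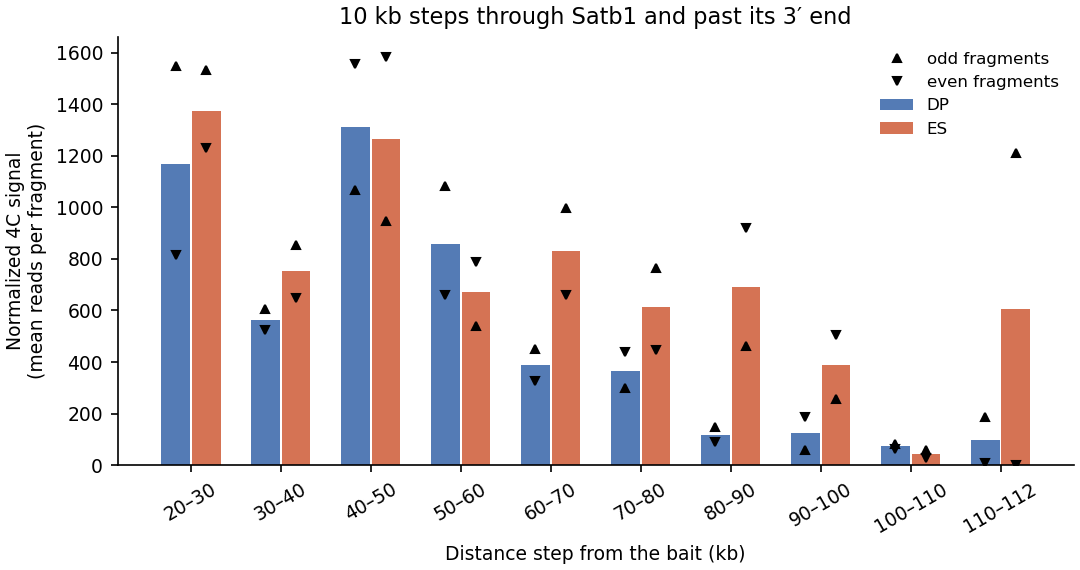
Mean normalized reads per fragment in each 10 kb step from the Satb1 bait, as bars for DP and ES. Triangles mark the means over odd fragments (pointing up) and even fragments (pointing down). At 80 to 90 kb the DP value is 117.8 and the ES value 689.9. The mirror values at that distance, which are not drawn, are 661.7 and 501.2.

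In 5 kb steps the highest level in ES was at 20 to 25 kb, where the signal was 1886.1 in ES and 1301.3 in DP. The highest level in DP was farther out, at 45 to 50 kb, with 1613.6 in DP and 1479.9 in ES. The step at 70 to 75 kb was level, with 592.4 and 612.7 (0.9668). The next, at 75 to 80 kb, held 200.8 in DP and 616.8 in ES (0.3255), so that DP was below ES inside the gene and before its 3′ end. In that step 1 of 11 fragments gave 63.57% of the DP reads. The signal was 56.54 over odd and 373.8 over even fragments in DP, and 628.5 and 602.7 in ES. The lowest ratio was 0.1331 at 85 to 90 kb, with signals of 155.8 and 1170.1. That step holds 4 fragments, of which 2 had reads in DP, and 1 of them gave 97.28% of the DP reads. The partial step at 110 to 112 kb followed with 0.161, and then the step at 90 to 95 kb with 0.2345 (102.8 and 438.5).

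The highest ratio was 3.204 at 100 to 105 kb, with low signals of 51.54 in DP and 16.09 in ES and with 21 of 23 fragments lacking a unique end. It was followed by 1.458 at 55 to 60 kb (1178.6 and 808.4) and 1.118 at 105 to 110 kb (127.7 and 114.3). Of 18 whole steps, 6 were over 2-fold lower in DP and 1 was over 2-fold higher. The shares over 572 such steps within 1.5 Mb were 41.8% lower and 21% higher.

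**Figure D3:**
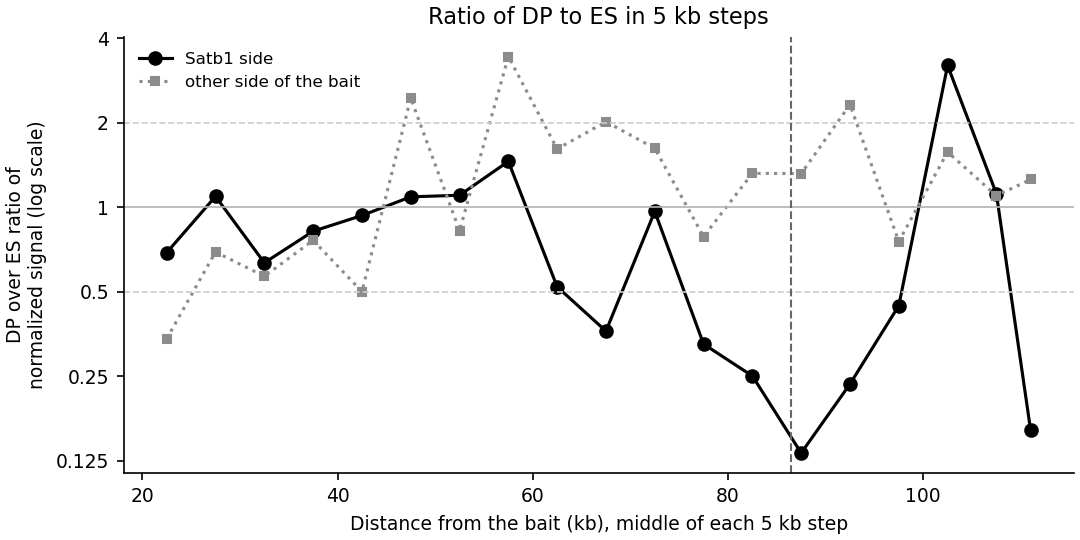
Ratio of DP to ES normalized signal on a log scale in 5 kb steps from the bait. The dotted line gives the ratio at the same distances on the other side of the bait. Dashed lines mark 2-fold in either direction and the 3′ end. On the Satb1 side the ratios are below 1 from 60 to 100 kb. They are above 1 from 100 to 110 kb, where most fragments lack a unique end.

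By gene part, the large intron nearest to the bait in the stretch (51924966 to 51941654, 51 fragments) held signals of 867.9 in DP and 1088.0 in ES (0.7977). The exon at its 3′ side (51924854 to 51924965) held 1271.9 and 796.2 over 2 fragments, and the intron after it (51922392 to 51924853) 450.4 and 250.3 over 5. The next exon (51921937 to 51922391) was higher in ES, at 669.3 in DP and 1257.9 in ES. In the intron from 51914744 to 51921936 the signals were 1194.6 and 990.7, and in that from 51907373 to 51914530 they were 933.1 and 969.4. The exons that close these introns (51914531 to 51914743 and 51907217 to 51907372) were each touched by 1 fragment, with 717 reads in DP against 189 in ES, and 988 against 449. The exon at 51941655 to 51941761 was touched by no member. Parts of 1 or 2 fragments rest on single ligation sites and are given as values alone.

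The last large intron (51882175 to 51907216, 25.04 kb, 45 fragments) held 510.1 in DP and 753.9 in ES (0.6766). The short exon after it (51881971 to 51882174) was low in both, at 63.33 and 64.67. The next exon (51881372 to 51881591) and the intron before it share 1 fragment, with 69 reads in DP and 6 in ES. The last intron (51879739 to 51881371) held 19.17 in DP and 189.7 in ES over 3 fragments.

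The last exon (51875512 to 51879738, 4.227 kb), which carries the end of the coding sequence and the 3′ UTR, and the last intron had the lowest ratios of all gene parts, and they share 1 fragment. From the side of the bait to the 3′ end, the 3 fragments with midpoints 51878896, 51877412 and 51875815 held 278, 95 and 19 reads in DP and 1038, 337 and 1994 in ES. The fragment at 51880280, which spans the border with the last intron, held 9 and 364. All 4 were thus higher in ES, and the signal of the part was 115.0 in DP and 1114.2 in ES (0.1032, 0.09288 to 0.1144). Over the whole body, fragments that touch an exon held 463.0 in DP and 726.9 in ES over 13 fragments, and intron fragments 738.8 and 916.4 over 122. Exon over intron was 0.6267 in DP and 0.7932 in ES by these means. By medians it was lower in DP as well (272.5 for exon and 353.6 for intron fragments) but higher in ES (528.8 and 369.0). The 2 classes were not matched for distance from the bait. Many of the exon fragments touch the exons at 79.83 to 86.49 kb, where the DP signal was low. Exon content and distance thus cannot be told apart in these values.

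The fall of the signal at the annotated 3′ end was then compared within each library. In DP the last 25 kb of the gene held 345.5 and the next 25 kb 99.50, a drop of 3.472 (3.369 to 3.578). In ES the values were 775.8 and 223.3, a drop of 3.475 (3.398 to 3.552). The mirror windows dropped by 1.499 in DP and 1.624 in ES. Among adjoining 25 kb windows within 1.5 Mb, 20.2% in DP and 13.8% in ES differed by more than 2-fold in that direction, and the median was 1.029 and 1.020. The drops were equal within counting error although the levels on both sides were lower in DP.

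Most of this drop did not sit at the 3′ end. With 10 kb on each side the order reversed, to 0.4528 in DP and 0.7907 in ES. The mean per fragment was thus higher in the first 10 kb past the gene than in its last 10 kb. In DP that higher mean came largely from the fragments at 51874132, 51871307 and 51866431, with signals of 584.5, 866.0 and 881.3. Several other fragments there held no DP reads. With 15 kb the drops were 1.680 and 1.339. With fragments that have a unique end alone they were 2.003 and 1.942, since 25 of the 56 flank fragments have none and 0 of the 135 body fragments lack one. Of those 25, 1 held reads in either library. Over the 31 flank fragments with a unique end the signal was 167.3 in DP and 386.7 in ES, with reads on 21 and 30 of them.

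Just past the 3′ end, the fragment at 51874132 held 679 reads in DP and 1044 in ES. The fragments at 51873035 and 51872164 held 0 and 0 in DP and 676 and 230 in ES. At 51871307 DP held 988 and ES 2354 reads, at 51866431 DP held 1006 and ES 237, and at 51865598 DP held 0 and ES 1197. DP reads were thus missing from several fragments near the 3′ end that ES reads covered, though not from all and not always in that direction. Within 1.5 Mb, without the 20 kb around the bait, DP also held reads on fewer fragments (38.54% against 49.81% in ES). The gap was wider near the 3′ end, with reads on 70.00% of fragments in DP and 100.0% in ES at 80 to 90 kb. At 90 to 100 kb the shares were 52.63% and 94.74%, and from 20 to 60 kb they were 97.75% in each library. Whether the missing DP reads are a trait of the 3′ end was not tested. Put as distance, 50% of the reads in the stretch lay within 40.38 kb of the bait in DP and 47.13 kb in ES. For 90% the distances were 71.90 kb in DP, 14.59 kb before the 3′ end, and 86.19 kb in ES, 0.303 kb before it. The flank held 5.053% of the reads in the stretch in DP and 9.927% in ES.

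**Figure D4:**
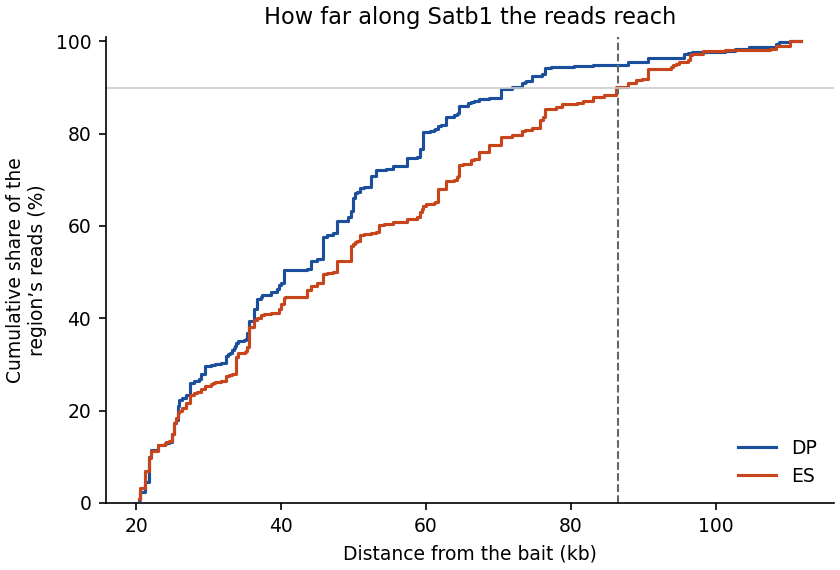
Cumulative share of the reads in the stretch against distance from the Satb1 bait in kb, for DP and ES, with the 3′ end as a dashed line. The DP line reaches 90% at 71.90 kb and the ES line at 86.19 kb.

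Single fragments varied far more than steps. In DP the next 4 after the highest were at midpoints 51916164 (5399 reads in DP, 2090 in ES), 51902403 (4064 and 805), 51936253 (3567 and 1349) and 51912085 (3317 and 332). In ES the next 4 were at 51940780 (4088 reads in ES, 2589 in DP), 51912385 (3595 and 1394), 51928160 (3293 and 303) and 51900391 (3132 and 737). All 10 were intronic, and both ends of each were unique. The leading 5 of each library gave 19.52% of the reads in the stretch in DP and 16.99% in ES. The neighbours at 51912085 and 51912385 had opposite orders, since DP led at the former and ES at the latter.

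Over all 191 members the normalized signals of DP and ES had a Pearson r of 0.5848 and a Spearman rho of 0.7171. These are descriptions across fragments, which share distance from the bait, ligation and mapping properties and are not independent. Over the 19 steps of 5 kb r was 0.7686. Odd and even fragments of the 10 steps of 10 kb gave r of 0.7801 in DP and 0.3698 in ES, and the last of these steps holds 1 odd and 1 even fragment. Reads were found in both libraries on 147 members, in DP alone on 3, in ES alone on 16 and in neither on 25. Of all 7547 fragments within 1.5 Mb, 2962 held reads in DP and 3803 in ES.

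**Figure D5:**
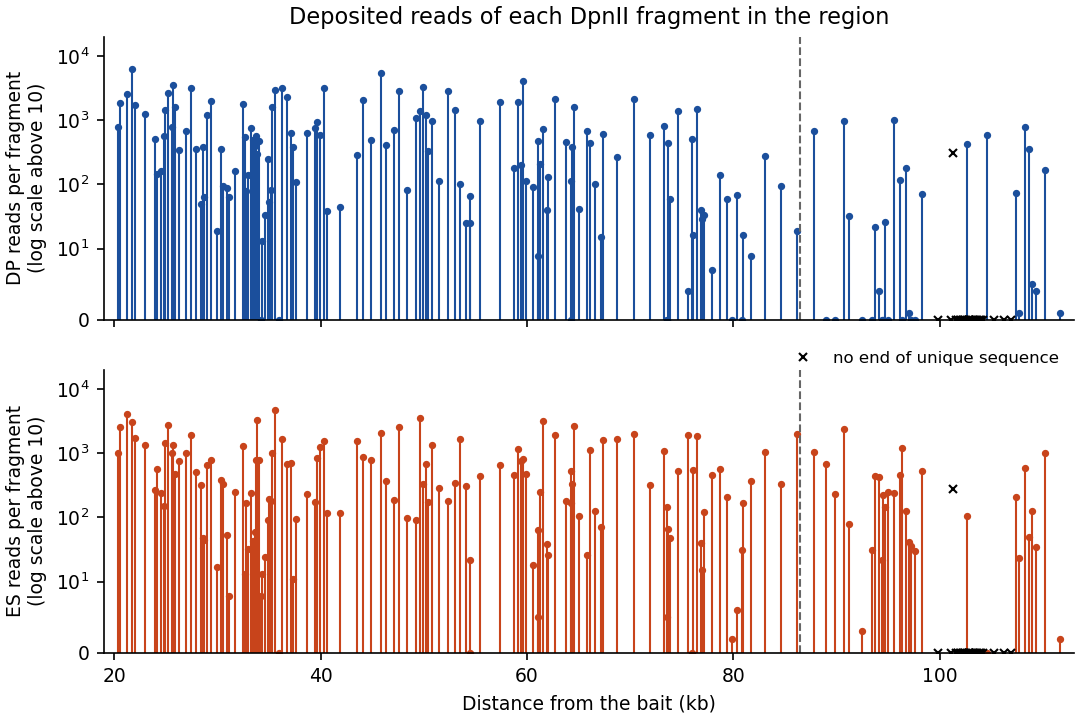
Deposited reads of each DpnII fragment in the stretch against distance from the Satb1 bait in kb, on an axis that is linear up to 10 and logarithmic above, for DP (top) and ES (bottom). Crosses mark the 25 fragments with no unique end, and the dashed line marks the 3′ end. From 80 to 90 kb DP reads sit on 7 of 10 fragments and ES reads on all 10.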

How the data were processed

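The deposited files hold raw counts of reads for each DpnII fragment of chromosome 17, with PCR duplicates kept. The guide leaves out fragments with over 2% of reads, and whether this was done before deposit is not stated for these files, which bears on totals and on shares near the bait. The authors removed the bait sequence (up to 2 mismatches), aligned reads to mm9 using Bowtie, given as 1.0.0 by the submitters' processing notes, and assigned each read to a fragment. Here midpoints were matched to DpnII fragments of the mm9 sequence, and genes were taken from GENCODE vM1. The DP and ES libraries were quantile normalized over fragments within 1.5 Mb of the bait, a range chosen here, in Python 3.11.15 (checked against limma 3.58.1 in R 4.3.3). The 20 kb next to the bait entered the normalization but no window. Ratios have exact binomial counting intervals at 95%, and the script that makes the steps was checked on simulated counts. Low fragments were kept. Fragments with no 26-base end unique in the genome were marked.

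The members, gene parts and alternatives were chosen with earlier results of these data known. Named are all steps of 10 kb, the 3 highest and 3 lowest of 5 kb, the highest level in each library, the 5 fragments with the most reads in each and all exons. The fragments near the 3′ end, the steps at 70 to 80 kb in 5 kb width and the 60 kb limit were chosen after their values were seen. The libraries of other baits were not used for comparisons here.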

Additional observations from a re-analysis of the deposited data

How the results depend on the processing

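With 1 library per cell type the alternatives below change the processing and not the samples. No paired analysis was possible because DP and ES share no replicate numbers beyond a single library each. The body ratio of 0.7930 was 1.015 with reads scaled to the chromosome total, where the order reversed, and 0.8174 with reads scaled to the total within 1.5 Mb. It was 0.8403 with quantile normalization over the chromosome, 0.8792 without the 20 kb around the bait, 0.8603 with counts capped, 0.9697 for the share of fragments with reads, 0.8007 without the highest fragment, 0.7480 over fragments with GTAC, and 0.8460 and 0.7370 over odd and even fragments. The flank ratio of 0.4464 stayed below 1 throughout, at 0.4903 and 0.3947 with these scalings, 0.5109 over the chromosome, 0.7097 for the share with reads, 0.4802 without the highest fragment and 0.4867 with GTAC. The drop across the 3′ end moved in DP to 3.595 with both scalings, 2.307 for the share with reads and 3.630 without the highest fragment. It was 3.040 with GTAC, 2.003 with unique ends, and 3.658 and 3.303 over odd and even fragments. With 15 kb windows it was 1.680, and with 10 kb windows it reversed to 0.4528. In ES the drop moved to 3.289 with both scalings, 3.581 over the chromosome, 3.392 without the 20 kb and 3.309 capped. It was 1.790 for the share with reads, 3.922 without the highest fragment, 3.758 with GTAC and 1.942 with unique ends. Over odd and even fragments it was 4.096 and 2.899, at 15 kb 1.339, and at 10 kb it reversed to 0.7907. The mirror windows, with drops of 1.499 in DP and 1.624 in ES, hold no 3′ end. They compare another place and are not an alternative processing. The 3 lower steps became 0 for the share with reads and 6 in 5 kb steps, and the 0 higher steps became 1 without the highest fragment, with GTAC, over odd or even fragments and in 5 kb steps. The cause of these moves was not tested. Chosen after seeing the data, the 60 to 100 kb ratio was 0.3844 to 0.5040 over 9 alternatives, and the 20 to 60 kb ratio was 0.8044 to 1.194, on either side of 1. Steps from 60 to 100 kb stayed below 1 in all settings run, the 80 to 90 kb step at 0.09681 to 0.3186 and the 70 to 80 kb step at 0.3917 to 0.980, while the steps nearer to the bait lay on either side of 1, at 0.664 to 1.121, 0.6311 to 1.007, 0.9842 to 1.378 and 0.8385 to 2.004 in order of distance. The 80 to 90 kb step rests on 1165 reads in DP, of which 1 fragment gave 58.28%.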
